A study of Mus musculus with 22 samples.

Results

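The 6 genes described here are the POU2 transcription factors Pou2f1, Pou2f2 and Pou2f3 and their OCA coactivators Pou2af1, Pou2af2 and Pou2af3, out of 17023 genes in the table. They were followed through every transcript that the mouse annotation assigns to them, 31 of the 62492 listed transcripts, singly and summed per gene. They were chosen by their measured difference between NFKBIE-ko and NFKBIE-wt leukemia cells, namely the higher levels of Pou2f3 and Pou2af3 in NFKBIE-ko against the B-cell members Pou2f2 and Pou2af1. The genotype differences of the members are therefore given as a description with no test, whereas the differences between compartments, which the choice did not use, were tested.

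The study sequenced RNA from TCL1-355 TKO cells, a leukemia line of the Eμ-TCL1 mouse, in which the TCL1 oncogene is driven in B cells, with lesions of CDKN2A and CDKN2B among those introduced into every group. NFKBIE, which encodes the NF-κB inhibitor IκBε, was disrupted with a Cas9 complex in the NFKBIE-ko cells. The NFKBIE-wt samples are titled MOCK, a word that the paper uses for cells given Cas9 without the guide RNA. Cells of each genotype were grown apart for 21 days in 1 C57BL/6 mouse each before transfer into 5 recipients per genotype, so that genotype and that passage cannot be told apart, and 10 days later 4 spleen samples and 4 peritoneal cavity (PC) samples per genotype were taken. A further 3 samples per genotype came from cells kept for 2 weeks in vitro. The paper states that the cultured cells had first been taken from spleens of different mice and were then grown apart. The cultures had thus also passed through mice. The spleen and PC samples were not purified and hold host cells, and which knockout line gave the RNA was not stated in the sources used here. In such bulk samples, fewer cells of a type and less RNA per cell cannot be told apart.

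POU2 factors bind the octamer, a short DNA element of immunoglobulin and many other promoters, through a POU domain. Pou2f1 (Oct-1) is made in most cells, Pou2f2 (Oct-2) mainly in B cells and Pou2f3 mainly in tuft cells, the chemosensory cells of epithelia, and in keratinocytes. Pou2af1 (OCA-B) joins the first pair on the octamer and is needed for germinal centres, whereas Pou2af2 and Pou2af3 (the OCA-T proteins) are coactivators of Pou2f3 in tuft cells and tuft cell-like tumours.

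The OCA genes form a cluster on chromosome 9 of GRCm39. Pou2af1 lies at chr9:51124984-51151380 on the plus strand, and Pou2af3 (chr9:51181558-51190951) and Pou2af2 (chr9:51200986-51240224) follow on the minus strand, with 30178 bases between the first pair and 10035 bases between the second. Pou2f3 (chr9:43035228-43121666, minus strand) lies 8003 kb away on the same chromosome. Pou2f1 is at chr1:165692723-165830247 and Pou2f2 at chr7:24786769-24879151, both on the minus strand. For 5 members, Pou2f1, Pou2f2 and the OCA genes, the 300 bases upstream of the annotated 5′ end of the main transcript are described here, with matches on both strands for the octamer ATGCAAAT and for the κB consensus, because the first is the element that these proteins bind and the second is the element downstream of IκBε. The promoters of the neighbours Pou2af3 and Pou2af2, which differed between the genotypes in opposite directions, are given 5′ to 3′ on the gene's strand, with octamer matches in capitals, from chr9:51190952-51191251 for Pou2af3 and chr9:51240225-51240524 for Pou2af2:
Pou2af3: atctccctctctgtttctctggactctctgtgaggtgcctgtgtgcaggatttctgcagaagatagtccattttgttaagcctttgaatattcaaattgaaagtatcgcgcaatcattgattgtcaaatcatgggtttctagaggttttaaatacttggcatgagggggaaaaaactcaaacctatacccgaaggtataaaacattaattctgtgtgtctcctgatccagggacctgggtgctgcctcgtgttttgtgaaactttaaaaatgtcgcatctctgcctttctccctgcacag
Pou2af2: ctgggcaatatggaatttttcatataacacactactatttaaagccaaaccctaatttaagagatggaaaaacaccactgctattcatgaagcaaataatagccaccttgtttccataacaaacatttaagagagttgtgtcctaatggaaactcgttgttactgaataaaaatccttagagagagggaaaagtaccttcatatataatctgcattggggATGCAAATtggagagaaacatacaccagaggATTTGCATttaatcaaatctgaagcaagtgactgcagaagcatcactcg

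The Pou2af2 window held 2 octamers, 80 to 73 bases upstream of the 5′ end on the gene's strand and 49 to 42 bases upstream on the opposite strand. Pou2f1 held 1, and the windows of Pou2f2, Pou2af1 and Pou2af3 held none. Of the 14729 protein-coding genes with such a window, 1.69% held the octamer and 5.15% the κB consensus, which was in none of these 5 members. A match is a description of the letters and not of binding.

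Total counts per sample lay between 24036763 and 26581304. Levels are given as CPM, counts scaled to library size. Nfkbie itself ranged from 47.1 to 65.1 CPM in the PC of NFKBIE-ko and from 67.8 to 92.6 CPM in that of NFKBIE-wt (log2 fold change -0.56, SE 0.12, adjusted p = 0.0038 by edgeR). It overlapped between the genotypes in the spleen (54.7 to 121 against 71.4 to 123 CPM, 0.19, adjusted p = 0.73) and in vitro (47.5 to 59.0 against 53.7 to 139 CPM, -0.93, adjusted p = 0.517). Without the library that stands apart in each, described next, these were 0.43 (adjusted p = 0.294) and -1.23 (adjusted p = 0.0925). Small insertions or deletions need not lower the RNA, so that these values do not check the labels. B-cell markers (8 genes such as Cd79a and Pax5) summed to between 1617 and 3970 CPM in the 22 samples. The sums were 3337 to 3509 CPM in NFKBIE-wt PC and 3803 to 3970 CPM in NFKBIE-ko PC. They were 1836 to 2362 and 1617 to 2228 CPM in the spleen, and 2392 to 3248 and 2462 to 2841 CPM in vitro. Of the 22 libraries, 18 were closest to the other libraries of their own group and 4 to another group, by Pearson's r over 11553 genes (0.929 to 0.997 with their own group over the 22 libraries). The library labelled NFKBIE-wt spleen replicate 4 had an r of 0.986 with NFKBIE-wt in vitro against 0.941 with its own group, and that labelled NFKBIE-wt in vitro replicate 3 had an r of 0.983 with NFKBIE-wt spleen against 0.929 with its own. Erythroid markers summed to 5.52 CPM in the first against 249 to 1965 CPM in the other NFKBIE-wt spleen samples, and to 1262 CPM in the second against 6.44 and 19.0 CPM in the other NFKBIE-wt in vitro samples. Both libraries thus stood nearer to the other's group, they were kept under their labels, and member results that moved without them are given both ways. The remaining pair, NFKBIE-wt in vitro replicates 1 and 2, were closest to NFKBIE-ko in vitro (r of 0.972 against 0.969 with their own group for replicate 1, and 0.987 against 0.952 for replicate 2). The own group of each included replicate 3, which stands apart, and their r with each other alone is not given.

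Among the POU2 factors, Pou2f3 was the member with the lowest level and the largest genotype difference. In the PC it had 144, 200, 123 and 163 counts in the NFKBIE-ko samples and 2, 1, 3 and 2 in the NFKBIE-wt samples. In the spleen it had 3, 16, 10 and 6 counts against 0, 0, 0 and 1, and in vitro 21, 4 and 55 against 1, 0 and 0. All NFKBIE-ko samples thus lay above all NFKBIE-wt samples in each compartment, but outside the PC they held 3 to 55 counts each. The ratio of the summed counts, corrected for library size, was 77.3 in the PC (95% exact interval 39.0 to 180), 34.8 in the spleen (5.85 to 1413) and 81.0 in vitro (14.1 to 3239). These intervals pool the counts of a group, leave out the spread between samples and cover counting error only. They are no test, because this difference was used to choose the members.

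Pou2f3 has 2 listed transcripts, and they split the genotypes further. The coding transcript Pou2f3-202 (2522 bases) carried every NFKBIE-ko count in the PC and had none in any NFKBIE-wt PC or NFKBIE-wt in vitro sample. The ratio of its summed counts in NFKBIE-ko over NFKBIE-wt had a 95% exact lower limit of 167 in the PC and 20.4 in vitro, with no upper limit because the NFKBIE-wt count was 0. These limits too cover counting error only and are no test. The few NFKBIE-wt PC counts belonged to Pou2f3-203, a retained-intron transcript of 2181 bases that had none in the NFKBIE-ko PC samples. In the NFKBIE-ko spleen, Pou2f3-202 was found in 2 of 4 samples (16 and 6 counts), and in the remaining samples the counts (3 and 10) were assigned to Pou2f3-203. In vitro, NFKBIE-ko replicate 2 had its 4 counts on Pou2f3-203 as well.

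The level of Pou2f3 also differed between compartments of the same genotype. NFKBIE-ko cells held 6.31 ± 1.20 CPM in the PC (n = 4), 0.346 ± 0.226 CPM in the spleen (n = 4) and 1.06 ± 1.07 CPM in vitro (n = 3). The PC samples lay above those of the spleen (log2 fold change 4.17, SE 0.39) and of the cultures (log2 fold change 2.62, SE 0.60) with no overlap, and spleen and culture overlapped (log2 fold change -1.62, SE 0.82). Pou2f3 entered the comparisons with the PC through the PC samples, where it is high, so that its compartment differences are given as a description with no test.

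Pou2f1, the ubiquitous factor, had 83.8 to 133 CPM in NFKBIE-wt PC and 78.9 to 118 CPM in NFKBIE-ko PC. It ranged from 65.8 to 157 CPM in NFKBIE-wt spleen and from 45.2 to 78.9 CPM in NFKBIE-ko spleen, and from 106 to 169 CPM and 116 to 132 CPM in vitro. The genotypes overlapped in every compartment (log2 fold changes -0.22, SE 0.16, in the PC, -0.85, SE 0.27, in the spleen and -0.08, SE 0.19, in vitro), and the spleen value was -0.66 (SE 0.26) without NFKBIE-wt spleen replicate 4. In NFKBIE-ko cells it was lower in the spleen than in vitro (log2 fold change -0.93, adjusted p = 0.0036) and higher in the PC than in the spleen (0.54, adjusted p = 0.027). Pou2f1 overlaps the T-cell gene Cd247 on the opposite strand. Whether the counting used strand is not given in the sources used here, so that reads of the overlap may belong to either gene.

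Pou2f2, the B-cell factor, was highest in the PC in both genotypes. It had 121, 130, 131 and 130 CPM in NFKBIE-wt PC and 153, 124, 134 and 126 CPM in NFKBIE-ko PC. In the spleen the values were 80.5, 37.3, 53.5 and 64.7 CPM in NFKBIE-wt and 33.5, 62.6, 26.3 and 27.7 CPM in NFKBIE-ko, and in vitro they lay between 68.9 and 88.2 CPM in all 6 samples. The genotypes overlapped in each compartment (log2 fold changes 0.06, SE 0.08, -0.68, SE 0.32, and -0.14, SE 0.11), although without NFKBIE-wt in vitro replicate 3 the NFKBIE-ko cultures lay below the NFKBIE-wt cultures (-0.23, SE 0.07), and without NFKBIE-wt spleen replicate 4 the spleen value was -0.62 (SE 0.34). In both genotypes all PC samples lay above all spleen and in vitro samples. The PC level exceeded that of the spleen in NFKBIE-wt (log2 fold change 1.13, SE 0.20, adjusted p = 0.0044) and in NFKBIE-ko cells (1.84, SE 0.26, adjusted p = 0.0002), and that of the cultures by 0.67 (adjusted p = 0.0075) and 0.91 (adjusted p = 7.4e-06). Without NFKBIE-wt spleen replicate 2 the first difference was 0.94, below the threshold of a log2 fold change of 1 (adjusted p = 0.0022). NFKBIE-ko spleen also lay below NFKBIE-ko in vitro (-0.99, adjusted p = 0.023). The summed B-cell markers were also highest in the PC of both genotypes, and their part in these differences was not tested.

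**Figure D1:**
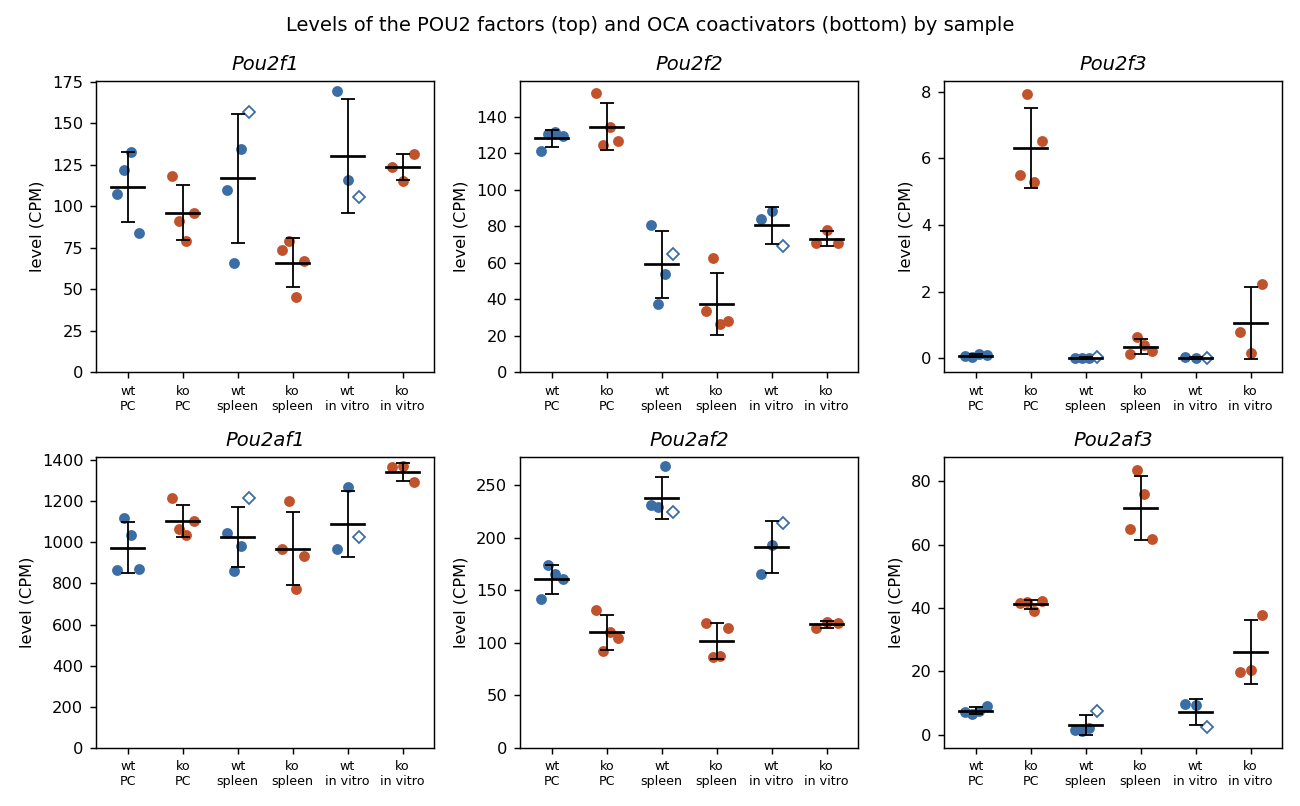
Level in CPM (y axis, linear) of each POU2 factor (top) and OCA coactivator (bottom) in the 22 samples by genotype and compartment (x axis). Points are samples, horizontal lines the group mean and bars the SD, and open diamonds mark NFKBIE-wt spleen replicate 4 and NFKBIE-wt in vitro replicate 3. Pou2f3 and Pou2af3 lie higher and Pou2af2 lower in NFKBIE-ko in each compartment, and Pou2f2 is highest in the PC of both genotypes.

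Of the OCA coactivators, Pou2af3 was higher in NFKBIE-ko in all compartments. In the PC it had 41.6, 41.9, 38.9 and 42.1 CPM in NFKBIE-ko against 7.21, 6.64, 7.50 and 8.99 CPM in NFKBIE-wt. In the spleen it had 64.9, 83.6, 76.0 and 61.7 CPM against 1.45, 1.14, 2.04 and 7.59 CPM, and in vitro 19.8, 20.4 and 37.7 CPM against 9.76, 9.35 and 2.41 CPM. No NFKBIE-ko sample fell within the NFKBIE-wt range. The log2 fold change was 2.43 (SE 0.10, 5.40-fold) in the PC, 4.51 (SE 0.58, 22.8-fold) in the spleen and 1.85 (SE 0.55, 3.61-fold) in vitro. The highest NFKBIE-wt spleen value and the lowest NFKBIE-wt in vitro value came from the pair of libraries that stand apart, and without them the log2 fold change was 5.51 (SE 0.24, 45.6-fold) in the spleen and 1.44 (SE 0.33, 2.72-fold) in vitro.

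Its order over the compartments differed from that of Pou2f3. In NFKBIE-ko cells Pou2af3 was highest in the spleen (71.6 ± 10.1 CPM, n = 4), followed by the PC (41.1 ± 1.51 CPM, n = 4) and the cultures (26.0 ± 10.1 CPM, n = 3). The spleen exceeded the PC (log2 fold change of PC over spleen -0.80, SE 0.11, adjusted p = 0.0001) and the cultures (1.43, SE 0.24, adjusted p = 0.0020), and the PC exceeded the cultures (0.69, SE 0.22, adjusted p = 0.022). In NFKBIE-wt cells none of the 3 differences passed with all libraries (PC over spleen 1.32, adjusted p = 0.11, PC over in vitro 0.08, adjusted p = 0.91, spleen over in vitro -1.25, adjusted p = 0.998), although PC over spleen passed in the fit of all 22 samples (1.28, adjusted p = 0.040) and with the replicate number as a block (1.75, adjusted p = 0.044). Without the libraries that stand apart, NFKBIE-wt spleen was below the PC (log2 fold change of PC over spleen 2.29, SE 0.25, adjusted p = 0.00028) and below the cultures (-2.65, SE 0.35, adjusted p = 0.012), whereas PC and cultures did not pass (-0.33, adjusted p = 0.20). The spleen then had the lowest level in NFKBIE-wt and the highest in NFKBIE-ko cells, and the difference between these orders was not tested.

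Pou2af2, the neighbour of Pou2af3, was lower in NFKBIE-ko. In the PC it had 132, 92.5, 110 and 105 CPM in NFKBIE-ko against 142, 174, 165 and 161 CPM in NFKBIE-wt. In the spleen the values were 119, 86.5, 87.5 and 114 CPM against 232, 229, 268 and 225 CPM, and in vitro 114, 120 and 119 CPM against 165, 193 and 215 CPM. All NFKBIE-ko samples lay below all NFKBIE-wt samples of their compartment. The log2 fold change was -0.55 (SE 0.11) in the PC, -1.25 (SE 0.14) in the spleen and -0.71 (SE 0.12) in vitro, and -1.27 in the spleen and -0.61 in vitro without the libraries that stand apart. NFKBIE-ko cells held 102 to 117 CPM on average in every compartment, and none of their 3 differences between compartments passed (log2 fold changes 0.11, -0.07 and -0.24). In NFKBIE-wt cells the spleen level exceeded that of the PC (log2 fold change of PC over spleen -0.56, SE 0.10, adjusted p = 0.0039).

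Pou2af1, the B-cell coactivator, was the most abundant member per length and overlapped between the genotypes in the PC and spleen. It had 868, 1117, 1037 and 872 CPM in NFKBIE-wt PC and 1215, 1065, 1036 and 1104 CPM in NFKBIE-ko PC. It lay between 863 and 1215 CPM in NFKBIE-wt spleen and between 773 and 1202 CPM in NFKBIE-ko spleen, and in vitro all 3 NFKBIE-ko samples (1295 to 1371 CPM) were above the NFKBIE-wt samples (969 to 1272 CPM). The log2 fold changes were 0.18 (SE 0.10), -0.11 (SE 0.16) and 0.30 (SE 0.12). In NFKBIE-ko cells the cultures exceeded the PC (log2 fold change of PC over in vitro -0.26, adjusted p = 0.0068) and the spleen (-0.50, adjusted p = 0.021).

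**Figure D2:**
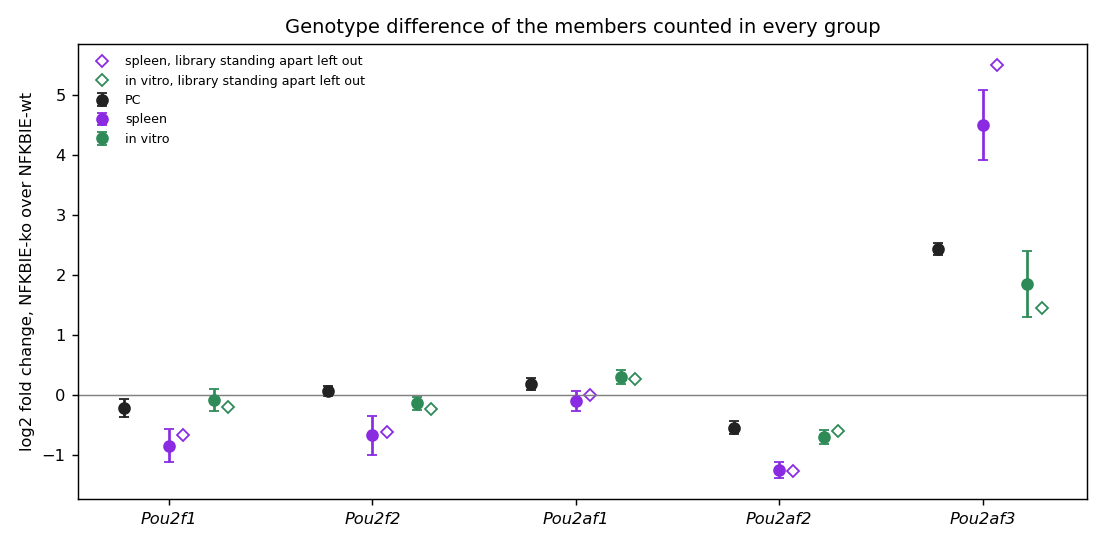
Log2 fold change of NFKBIE-ko over NFKBIE-wt (y axis) for the 5 members counted in every group (x axis), with 1 SE, in the PC, spleen and in vitro samples. Open diamonds leave out the library that stands apart in that compartment. Pou2af3 lies between 1.44 and 5.51 and Pou2af2 between -1.27 and -0.55, open diamonds included, while Pou2f1, Pou2f2 and Pou2af1 lie within 1 of 0. Pou2f3 is not drawn because its NFKBIE-wt counts were at or near 0.

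Across the 3 compartments the members lay apart between the genotypes as follows, a count that the choice of members fixes in part and from which nothing is read. In the PC 2 members lay wholly above and 1 wholly below NFKBIE-wt, where 21.8% and 19.9% of all tested genes did. In the spleen the counts were 2 and 1 (8.71% and 7.5% of all tested genes), and in vitro 3 and 1 (10.1% and 9.61%). These counts are out of all 6 members, and those above include Pou2f3 in each compartment. In the spleen and in vitro Pou2f3 was below the filter on low counts, so that the shares there do not cover it. Between compartments of NFKBIE-wt cells, 1 of 5 tested members was called (past 1 on the log2 scale in size, with an adjusted p under 0.05) for PC against spleen, where 11.1% of all genes were called, and none for PC against in vitro (8.91%). None was called for spleen against in vitro, where edgeR and DESeq2 called 0% of all 12332 genes. Of these genes, 136 had an unadjusted p below 0.05, fewer than chance alone would give. Without the libraries that stand apart the members called became 2 of 5 (14.4% of all genes), 0 of 5 (16.3%) and 1 of 5 (5.81%). In NFKBIE-ko cells 2 of 6 were called for PC against spleen (22.1%), Pou2f3 among them, 1 of 6, Pou2f3 itself, for PC against in vitro (23.1%) and 1 of 6 for spleen against in vitro (15.1%). Pou2f3 passed the filter on low counts in the comparisons with the PC through the PC samples, so that its calls are a description.

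Levels of different genes were compared per transcript length, as TPM, which divides counts by transcript length and scales each sample to 1 total. Pou2af1 had 525 to 1047 TPM in the 22 samples, Pou2af2 110 to 404 TPM and Pou2af3 1.62 to 134 TPM. Of the factors, Pou2f1 had 7.13 to 29.7 TPM, Pou2f2 6.46 to 40.8 TPM and Pou2f3 at most 5.38 TPM. Pou2f1 and Pou2f2 overlapped in range, and Pou2af1 and Pou2af2 were above every POU2 factor in all samples. Of the OCA level in TPM, Pou2af3 made up 1.29% ± 0.246 in NFKBIE-wt and 6.44% ± 0.414 in NFKBIE-ko PC (n = 4 each), 0.431% ± 0.401 and 12.1% ± 2.09 in the spleen (n = 4 each), and 1.09% ± 0.663 and 3.58% ± 1.46 in vitro (n = 3 each). Without the libraries that stand apart, its NFKBIE-wt share was 0.232% ± 0.0633 in the spleen (n = 3) and 1.25 and 1.67% in the remaining cultures. The share of Pou2af2 was 22.9% against 14.5%, 29.8% against 14.6% and 24.6% against 13.6%. Pou2f3 made up 8.14% ± 1.97 of the POU2 factor level in NFKBIE-ko PC, 1.20% ± 0.800 in NFKBIE-ko spleen and 1.81% ± 1.75 in NFKBIE-ko in vitro, and at most 0.174% in any NFKBIE-wt sample.

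The neighbours Pou2af3 and Pou2af2 thus lay on opposite sides of the genotype difference. Pou2af3 reached 0.00589 to 0.0694 of the Pou2af2 level in TPM in the NFKBIE-wt samples. The ratio was 0.372 to 0.534 in NFKBIE-ko PC, 0.641 to 1.14 in NFKBIE-ko spleen and 0.202 to 0.375 in NFKBIE-ko in vitro. In 2 NFKBIE-ko spleen samples Pou2af3 exceeded Pou2af2.

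**Figure D3:**
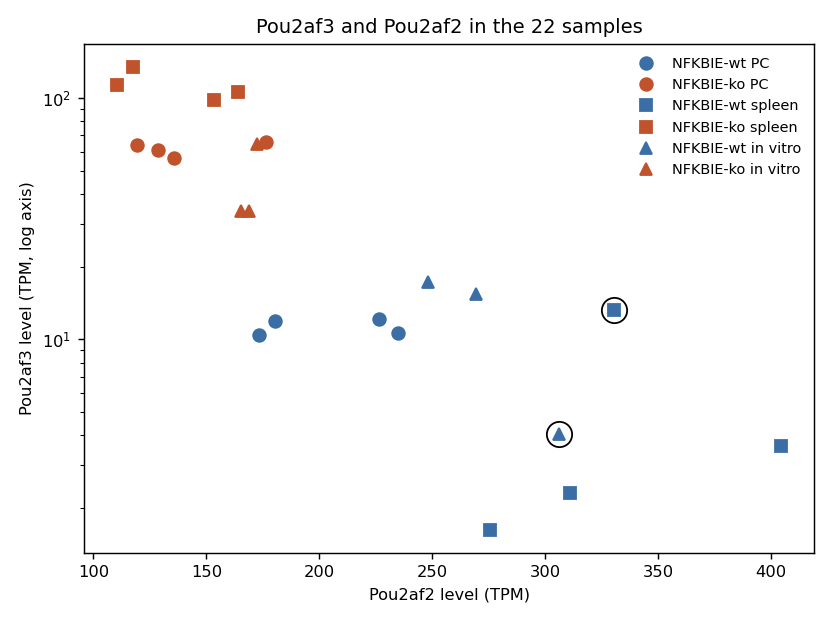
Level of Pou2af3 (y axis, TPM, log axis) against Pou2af2 (x axis, TPM, linear) in the 22 samples, with colour for genotype and shape for compartment. Rings mark NFKBIE-wt spleen replicate 4 and NFKBIE-wt in vitro replicate 3. The NFKBIE-ko samples lie at 33.9 to 134 TPM of Pou2af3 and the NFKBIE-wt samples at 1.62 to 17.2 TPM.

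Most counts of a member lay on 1 transcript. Pou2af3-203 carried 98.5% of the counts of Pou2af3, Pou2f3-202 96.6%, Pou2af1-201 95.3%, Pou2af2-203 95.02%, Pou2f1-205 79.1% and Pou2f2-209 76.5%. In the PC, Pou2f1-205 took 62.4 to 77.8% of the gene's counts in NFKBIE-ko and 67.4 to 97.2% in NFKBIE-wt, and Pou2f1-208, of nearly equal length, took 17.5 to 35.0% and 0 to 27.9%. Estimated counts divide reads shared by such similar transcripts, so that this split is uncertain.

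The tuft cell programme, a list of 36 genes known from tuft cells, the cells in which Pou2f3 is best known, was then followed (32 in the table, members left out). In the PC 18 of 29 tested genes rose in NFKBIE-ko and 1 fell, where 9.97% of all genes rose and 3.5% fell, and the median log2 fold change was 1.37 against -0.0079 over all genes. In 8 of the 29 the NFKBIE-wt PC samples did not reach the filter on low counts by themselves, so that these genes were tested because NFKBIE-ko or both groups together carried them, and of the other 21 genes 13 rose. The counts describe the list and are no support for its direction. In the spleen none of 19 rose and 1 fell (1.4% and 1.59% of all genes, median 0.26), with 2 higher at an unadjusted p below 0.05 and 2 higher by DESeq2. In vitro none of 18 was called (0.0341% and 0% of all genes, median 0.26), with 2 higher at an unadjusted p below 0.05 and none by DESeq2. Without NFKBIE-wt spleen replicate 4, 1 of 21 rose in the spleen (Krt18) and 2 fell (Rgs13 and Gfi1b). Of all 12471 genes tested then, 378 rose and 415 fell. With all libraries, Krt18 passed the filter on low counts in the spleen through NFKBIE-ko alone. Gfi1b passed it through neither genotype by itself. The calls of Krt18 and Gfi1b are therefore a description. Within NFKBIE-ko cells, 24 of 29 tested genes were higher in the PC than in the spleen and none lower. Of all 12628 genes, 1976 were higher and 816 lower. In the PC against in vitro 19 of 29 were higher and 1 lower, and of all 12721 genes 2205 and 738. How many of these list genes passed the filter on low counts through the PC alone was not counted. Beside these counts, macrophage markers summed to 3606 to 5246 CPM in the PC, 95.6 to 340 CPM in the spleen and 37.0 to 45.9 CPM in vitro. The part of macrophages in these counts was not tested. The spleen against in vitro had 3 higher and 7 lower of 21, and of all 12355 genes 1086 and 778. Over the left-out libraries, the list genes called between the genotypes in either direction ranged from 16 to 20 in the PC, from 0 (without NFKBIE-ko spleen replicate 3) to 3 (without NFKBIE-wt spleen replicate 4) in the spleen and from 0 to 3 (without NFKBIE-wt in vitro replicate 2) in vitro. All genes called ranged from 1609 to 1817 in the PC, from 116 to 793 in the spleen and from 0 to 391 in vitro. The highest spleen and in vitro values over all genes came from the same left-out libraries as those of the list.

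The list genes with the largest log2 fold changes in the PC included parts of the taste signalling pathway. Gnat3, Gng13, Sh2d7 and Sucnr1 passed the filter on low counts through NFKBIE-ko PC alone and are given with no test. Gnat3, the G protein alpha subunit gustducin, had 7.76 ± 3.03 CPM in NFKBIE-ko against 0.271 ± 0.202 CPM in NFKBIE-wt samples (SD, n = 4 each, log2 fold change 4.83, SE 0.45). Its partner Gng13, a G protein gamma subunit, had 8.41 ± 1.52 against 0.421 ± 0.225 CPM (4.30, SE 0.31), and the adaptor gene Sh2d7 8.24 ± 2.19 against 0.438 ± 0.288 CPM (4.21, SE 0.39). All 3 were below 1 CPM on average in NFKBIE-wt PC. Krt18, a keratin of simple epithelia, had 101 ± 16.3 against 4.34 ± 1.24 CPM (4.54, SE 0.20) and the succinate receptor Sucnr1 1.11 ± 0.451 against 0.0818 ± 0.0035 CPM (3.68, SE 0.48). Trpm5, the cation channel of tuft cells, was named after its values were seen and had 86.1 ± 6.90 against 29.7 ± 3.98 CPM in the PC (1.53, SE 0.10, adjusted p = 1.7e-06), with log2 fold changes of 0.26 in the spleen (adjusted p = 0.80) and 0.28 in vitro (adjusted p = 0.82). In the spleen Trpm5 ranged from 23.5 to 51.6 CPM in NFKBIE-ko and from 15.4 to 76.2 CPM in NFKBIE-wt. The 76.2 CPM came from replicate 4, which stands apart. Without that library Trpm5 was not called in the spleen either, and its log2 fold change there is not given. Rgs13, a regulator of G protein signalling that B cells also make, fell in the PC (-2.07, SE 0.25) and in the spleen (-2.81, SE 0.45, adjusted p = 0.011).

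**Figure D4:**
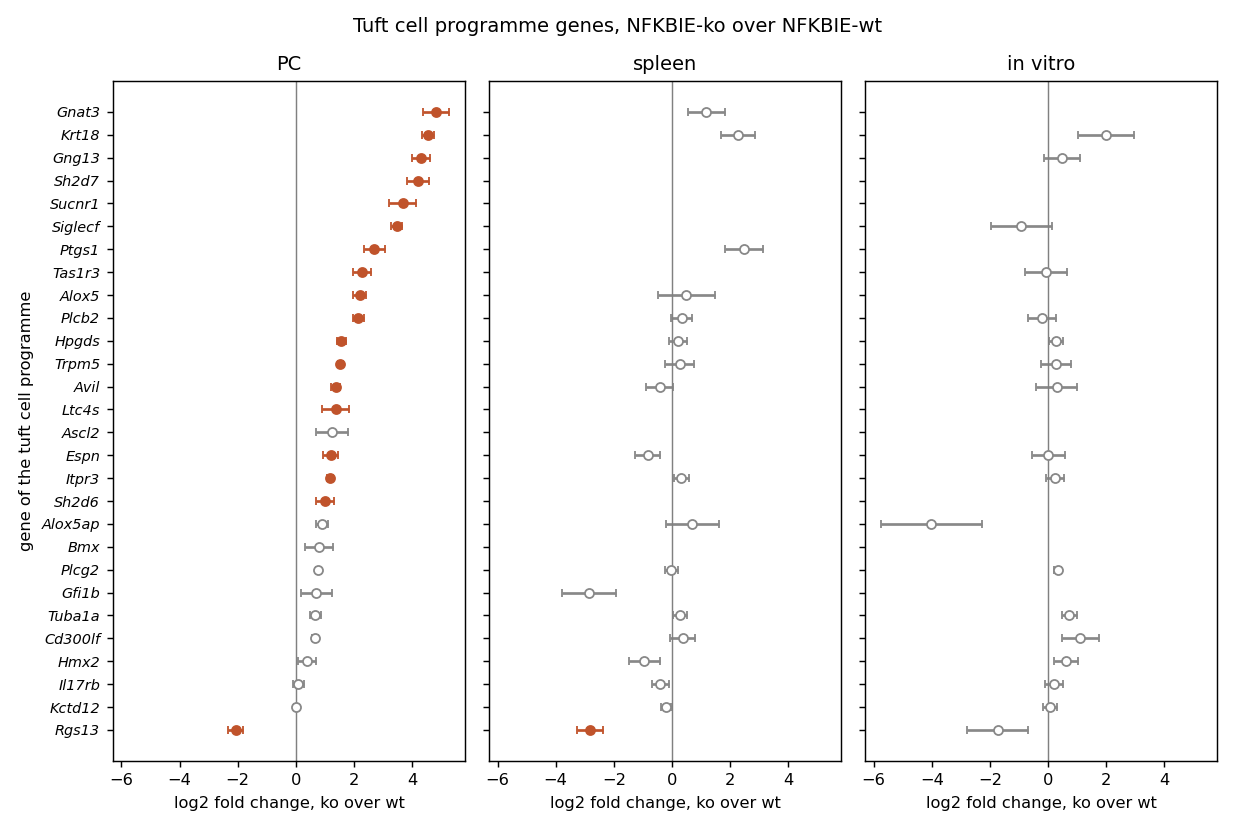
Log2 fold change of NFKBIE-ko over NFKBIE-wt (x axis, with 1 SE) for 28 of the 29 tuft cell programme genes tested in the PC (y axis, in the order of their PC value), in each compartment. Filled points were called and open points were not, and a gene below the filter on low counts has no point. Filled points stand to the right in the PC, apart from Rgs13, and only Rgs13 is filled in the spleen.

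Markers of other cells moved with the genotype in the PC. Macrophage markers (10 genes, all listed) summed to 3606 to 5246 CPM in NFKBIE-ko PC against 538 to 1616 CPM in NFKBIE-wt PC, and several genes of the list, among them Ptgs1, Alox5 and Siglecf, are also made by myeloid cells. Granulocyte markers (8 genes, all listed) went the other way, with 28.9 to 44.6 CPM in NFKBIE-ko PC against 127 to 398 CPM in NFKBIE-wt PC. Epithelial markers (7 of 10 listed) summed to 214 to 296 against 25.6 to 39.2 CPM, with Krt5, Krt14 and Cldn4 at 0 or not listed. That sum was carried by Krt8 (117 to 158 against 5.53 to 10.2 CPM) and Krt18 (78.7 to 116 against 2.92 to 5.95 CPM), which is also on the tuft list, whereas Epcam overlapped (13.9 to 20.4 against 12.0 to 20.5 CPM). Tuft markers (7 of 8 listed, Il25 not) summed to 126 to 150 against 40.6 to 54.0 CPM in the PC, to 31.7 to 58.5 against 20.2 to 90.7 CPM in the spleen and to 83.6 to 105 against 23.5 to 126 CPM in vitro, where the tuft marker Dclk1 was at 0 in NFKBIE-ko. The PC sum was mostly Trpm5 and Avil (38.2 to 46.2 against 11.8 to 20.6 CPM), and Chat had 0.0800 to 0.267 against 0.261 to 0.480 CPM. Dclk1 had at most 0.0400 CPM in NFKBIE-ko PC and 0.304 CPM in NFKBIE-wt PC. The 90.7 and 23.5 CPM came from the libraries that stand apart, without which the NFKBIE-wt sums were 20.2 to 31.0 CPM in the spleen, below every NFKBIE-ko spleen sample, and 75.3 and 126 CPM in vitro. The part of these cells in the list's values was not tested. In NFKBIE-ko in vitro samples macrophage markers summed to 37.0 to 45.9 CPM, with C1qa, Fcgr1 and Marco at 0, and T-cell markers to at most 28.8 CPM, with Trbc2, Cd8a, Cd8b1 and Cd28 at 0. In the spleen, cytotoxic and NK cell markers summed to 37.2 to 104 CPM with NFKBIE-ko against 2.95 to 13.2 CPM with NFKBIE-wt, beside the difference of Pou2af3 there, and their part in it was not tested.

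Genes known to depend on the octamer or OCA-B in B cells were followed next. Of 14 such genes, 2 of 12 tested rose in the PC, where 9.97% of all genes did, with a median of 0.14. The cytokine Il6 was among those that rose (log2 fold change 1.59, SE 0.45). Of the 11 whose NFKBIE-wt PC samples reached the filter on low counts by themselves, 1 rose. In the spleen 1 of 11 fell, where 1.59% of all genes did. This was Il5ra, the IL-5 receptor chain of B-1 cells and eosinophils (-1.38, SE 0.26, adjusted p = 0.021, and -1.08 without NFKBIE-wt spleen replicate 4), with a median of -0.38. In vitro none of 11 was called (median -0.03, 1 lower at an unadjusted p below 0.05, none by DESeq2). Of 20 B-lineage genes, Cd22, an inhibitory receptor, rose in the PC (1.55, SE 0.19, adjusted p = 0.00017) and Bach2, a repressor of plasma cell differentiation, fell in the spleen (-1.96, SE 0.41, adjusted p = 0.029), out of 19 tested in each (9.97% of all genes rose in the PC and 1.59% fell in the spleen). Without NFKBIE-wt spleen replicate 4, Bach2 was at -1.88 and Cd79b, part of the B-cell receptor, at -1.10 in the spleen. Of 12 other POU genes, 4 were in the table, and 3.5% of all genes fell in the PC. Pou5f1 was called lower in the PC (-1.48, SE 0.37) and Pou4f1 in the spleen (-3.02, SE 0.73), both below 2 CPM on average in each group, and Pou4f1 was at -2.93 without NFKBIE-wt spleen replicate 4. In vitro edgeR called none of the 18 B-lineage and 3 other POU genes tested, with 7 and 0 at an unadjusted p below 0.05 and 2 and 0 by DESeq2.

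Genes near the members were followed as well. Of 14 listed genes within 500 kb of Pou2f3 or the OCA cluster, 2 of 11 tested rose in the PC, against 9.97% of all genes. Of the 8 whose NFKBIE-wt PC samples reached the filter on low counts by themselves, 1 rose. Gm32742, the listed gene next to Pou2af1 (chr9:51041607-51076817), had 10.0 ± 2.83 against 3.02 ± 0.414 CPM (log2 fold change 1.73, SE 0.22, adjusted p = 0.00012), and Layn, which encodes a hyaluronan receptor, 1.65 ± 0.699 against 0.280 ± 0.201 CPM (2.54, SE 0.60). Of the genes on either side of Pou2f3, Oaf had a log2 fold change of 0.87 in the PC and was not called. It passed the filter on low counts through NFKBIE-ko PC alone and is given with no test. Arhgef12, on the other side, did not pass in the PC (-0.16, adjusted p = 0.22). Arhgap20, which lies beyond Pou2af2, fell in the spleen (-2.22, SE 0.45, where 1.59% of all genes fell), and none of 9 was called in vitro (3 at an unadjusted p below 0.05 and 1 by DESeq2). Without NFKBIE-wt spleen replicate 4, Gm32742 rose in the spleen and Oaf fell beside Arhgap20. With all libraries, Gm32742 passed the filter on low counts in the spleen through NFKBIE-ko alone, and Oaf did not pass it there. These calls are therefore a description. In the spleen none of the neighbours, octamer, B-lineage and other POU genes was called without NFKBIE-ko replicate 1, 3 or 4 or without NFKBIE-wt replicate 3, and none of the B-lineage and other POU genes without NFKBIE-wt replicate 1 or 2. Of all genes, 116, 124 and 135 were called without NFKBIE-ko replicate 1, 3 and 4, and 159 without NFKBIE-wt replicate 3. In vitro 2 B-lineage genes were called without NFKBIE-wt replicate 2, where 391 of all genes were called. In the PC the calls ranged from 2 to 3 for the neighbours and from 1 to 2 for the octamer and B-lineage genes over the left-out libraries, beside 1609 to 1817 of all genes. Il6, Layn, Pou5f1, Pou4f1 and Arhgap20 passed the filter on low counts in these comparisons through the higher genotype alone. Their values, and the counts of called genes that include them, are given as a description.

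The genes with the pattern most like that of each member over the 22 samples were ranked among 11501 genes by Pearson's r of log2(CPM + 0.5), values that share genotype and compartment and carry no test. The closest to Pou2f3 were the taste genes Gnat3 (0.970) and Gng13 (0.928), followed by Capn2 (0.927), Ifit1bl1 (0.923) and Anxa4 (0.921). The closest to Pou2af3 were Cd4 (0.938), Cmtr1 (0.912), Plch1 (0.905), Usp18 (0.896) and Lrp4 (0.884). Cd4 marks helper T cells, and 10 T-cell markers summed to 59.2 to 104 CPM in NFKBIE-ko spleen against 25.2 to 61.9 CPM in NFKBIE-wt spleen, whose part in the Pou2af3 values was not tested. For Pou2f2 they were Wdr13 (0.946), Map4k2 (0.944), Eps15 (0.933), Zdhhc20 (0.927) and Wbp2 (0.926), and for Pou2af1 Rfx5 (0.913), Kdm3b (0.891), Map4k4 (0.876), Pip5k1c (0.875) and Pik3c2b (0.862). No gene was shared between these 4 lists.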

How the data were processed

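RNA of 22 samples (4 per genotype in PC and spleen, 3 in vitro) was sequenced in pairs. The authors estimated transcript counts with Salmon 1.8 on GRCm39 (per the submitters' processing notes and the methods) and deposited the estimated counts, not normalized; every listed transcript is above 0 in at least 5 samples. Here counts were rounded and summed per gene over GENCODE (62147 of 62492 transcripts matched; the rest held 0.619% of counts). The 6 groups follow the titles. Genes were tested per pair of groups with edgeR 4.0.16 (R 4.3.3: filterByExpr, TMM, robust quasi-likelihood, Benjamini-Hochberg), called at adjusted p below 0.05 and log2 fold change beyond 1, after a test on simulated data. DESeq2 1.42.0, RLE factors, no filter, a fit of all 22 samples, a replicate block, the main transcript alone and left-out libraries were alternatives. CPM used TMM over all libraries and TPM annotated lengths. Replicates differed beyond sampling noise (30 pairs, chi-square per degree of freedom 6.85 to 200). The labels do not say that each sample came from its own animal, so that p-values cover the spread between these samples, which may in part be technical. The paper took spleen and PC cells from the same 5 recipients per genotype, so that samples of both compartments can share animals. The tests of PC against spleen treated them as independent. Salmon counts are not whole, and intervals from them cover counting error only. The members and lists were chosen with earlier results of these data known. Named genes were the 6 members, Nfkbie, up to 6 called genes per list by size, the members' neighbours and the 5 genes most like 4 of the members; other names were chosen after their values were seen. Promoter windows were read from the GRCm39 genome. Some items that the rules would name are not reported here.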

Additional observations from a re-analysis of the deposited data

Results flagged for a closer look

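In the groups of 4 samples, 4 member values stood apart from the other 3 by more than Dixon's test allows at 95%, out of 24 groups tested, where chance gives about 1 in 20. Pou2af3 had 7.59 CPM in NFKBIE-wt spleen replicate 4, above the 1.14 to 2.04 CPM of the others, and Pou2f3 had 0.0383 CPM (1 count) in the same library, the others being at 0. Any single count beside 3 zeros stands apart in this way. Replicate 4 is one of the pair of libraries that stood nearer to another group than to their own. Pou2af2 was highest in NFKBIE-wt spleen replicate 3 (268 CPM), and Pou2af3 was lowest in NFKBIE-ko PC replicate 3 (38.9 CPM, against 41.6 to 42.1 CPM).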

How the results depend on the processing

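Leaving out NFKBIE-wt spleen replicate 4 and NFKBIE-wt in vitro replicate 3, an alternative chosen after seeing the data, moved the genes called for NFKBIE-ko against NFKBIE-wt from 365 to 793 in the spleen and from 4 to 9 in vitro, and those in NFKBIE-wt for PC against in vitro from 1120 to 2096 and for spleen against in vitro from 0 to 724. Members called rose from 1 to 2 for NFKBIE-wt PC against spleen and from 0 to 1 for spleen against in vitro. DESeq2 called 721 genes in the spleen and 152 in vitro, and the fit of all 22 samples 661 and 189, with 1763 for NFKBIE-wt PC against in vitro and 2 members for NFKBIE-wt PC against spleen. The replicate numbers did not pair the samples, and with the replicate block the counts were 89 genes in the spleen, 0 in vitro and 13 for NFKBIE-wt PC against in vitro, with 2 members for NFKBIE-wt PC against spleen and 0 for NFKBIE-ko PC against in vitro. For NFKBIE-ko spleen against in vitro, DESeq2, RLE, no filter and the main transcript alone each called 2 members in place of 1 (Pou2f2, whose log2 fold change lay at the threshold). The cause of the other changes was not tested.

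Leaving out 1 library at a time, the genes called ranged from 116 (without NFKBIE-ko spleen replicate 1) to 793 in the spleen, from 0 to 391 (without NFKBIE-wt in vitro replicate 2) in vitro, from 1015 to 1823 for NFKBIE-wt PC against spleen and from 547 (without NFKBIE-wt PC replicate 1) to 2096 for NFKBIE-wt PC against in vitro. Members called ranged from 0 to 2 for NFKBIE-wt PC against spleen, from 1 to 2 for NFKBIE-ko PC against in vitro and from 1 to 3 for NFKBIE-ko spleen against in vitro. For NFKBIE-ko PC against in vitro the 1 member called with all libraries was Pou2f3, whose call is a description.

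Small differences that were not called changed sign. Over the left-out libraries, Pou2f1 ranged from -0.28 to 0.11 for NFKBIE-wt PC against spleen, from -0.35 to 0.012 for PC against in vitro and from -0.36 to 0.051 for spleen against in vitro, and it was 0.14 and 0.041 in the first 2 with the main transcript alone. Pou2af1 ranged from -0.17 to 0.019 for NFKBIE-wt PC against spleen and from -0.21 to 0.041 for spleen against in vitro, Pou2af3 from -0.33 to 0.37 for NFKBIE-wt PC against in vitro, and Pou2af2 from -0.14 to 0.0072 for NFKBIE-ko PC against in vitro. Without both libraries that stand apart, Pou2f1 was 0.11, Pou2af1 0.019 and Pou2af3 -0.33 in those comparisons with the PC. At this depth Pou2f3 outside NFKBIE-ko PC rests on few counts.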
